A study of Danio rerio with 36 samples.

Results

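The genes described here encode the machinery by which neurons fill, dock, fuse and recover synaptic vesicles. They were chosen by symbol, from a list of 46 gene names drawn up by function with earlier results of these data known. Of the 46 symbols, 36 were found in the gene annotation of the counts, which holds 32520 genes, and vamp1, stx1a, syt1b, syt2a, sv2a, sv2bb, sv2c, rims1b, rims2a and unc13ba were not analysed here. The study models mucopolysaccharidosis IIIA, a lysosomal storage disorder of heparan sulfate breakdown, in zebrafish homozygous for the deletion allele sgshΔex5-6 (sgsh) and in wild-type (WT) fish. There are 36 libraries in 12 groups of 3. Groups of both genotypes were made from whole embryos at 24 hpf and from heads at 5 dpf, each library pooling 50 animals, and from whole brains at 2, 3 and 18 months, each library pooling 3 brains. At 2 months, fish of both genotypes were also sequenced with the stable transgene Tg(-3.5ubb:mTagBFP2-T2A-sgsh), which carries sgsh behind a fragment of the broadly active promoter of the ubiquitin gene ubb. The other groups carried no transgene. The methods call the replicates of the 3-month brains independent experiments. For the other groups, the sources used here do not say that the 3 pools came from separate clutches, and p-values there may measure only technical spread between libraries.

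A synaptic vesicle is loaded with transmitter by a vesicular transporter, and is held in clusters by synapsins. Its SNARE protein, a synaptobrevin, zippers with syntaxin and SNAP25 of the plasma membrane to drive fusion. Munc13 (unc13) guides this assembly, synaptotagmin and complexin couple it to calcium, NSF and alpha-SNAP (napa) take spent SNARE complexes apart, and clathrin, amphiphysin and dynamin retrieve the membrane. Many of these genes have a pair of copies in zebrafish, a remnant of the genome duplication of bony fishes, marked a and b.

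The number of reads counted to genes was 24761341 to 26038889 per library at 24 hpf, 17061799 to 17303538 at 5 dpf, 21340728 to 24678514 at 3 months, 22177654 to 22511711 at 18 months and 16200025 to 16594654 at 2 months. The sgsh count itself was lower in every sgsh than in every WT library at 5 dpf and at 2, 3 and 18 months without the transgene, and overlapped at 24 hpf, so the labels were not checked in this way there. The summed level of 14 neuron markers was 5054 to 5369.9 TPM in WT brains at 3 months and 852 to 871 TPM in WT embryos. One library stood apart for the release genes. In sgsh brain replicate 1 at 18 months they differed from the mean of the other 2 libraries of its group by a median of 0.155 on the scale log2(CPM + 1), against 0.0238 to 0.117 in the other 35 libraries. Over 21679 genes it did not stand apart by this measure. The median there was 0.134 for this library, 0.133 for replicate 3 of its group and 0.142 for 2-month sgsh replicate 3 without the transgene. It did weigh on the calls over all genes. Between the genotypes at 18 months 1352 genes were called with all libraries and 3453 without this one. Leaving out any other single library gave 189 to 698.

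Levels of different genes were compared as TPM, the share of a transcript among all, which divides the count by the exon length and so allows comparison between genes. In the WT brain at 3 months snap25a, a SNAP25 of the plasma membrane on chromosome 20, from 34913069 to 34956230 of the submitters' build GRCz11, was the most abundant member, at 2827, 2816 and 2783 TPM in the 3 libraries. Also among the 5 highest were snap25b at 624 to 675 TPM, cplx2l, a complexin, at 563 to 608 TPM, and syt1a, a synaptotagmin and calcium sensor of fast release, at 473 to 489.5 TPM. The ranges of these 4 did not overlap. Further down the order they did: nsfa, sypa and syt11a lay at 392 to 412, 389 to 409 and 395 to 401 TPM. The 5 lowest members were sv2ba, a vesicle glycoprotein, at 0.58 to 0.749 TPM, stx3a, a syntaxin that in mammals serves ribbon synapses of the retina, at 0.509 to 1.01 TPM, CPLX3, a complexin named in capitals in the annotation, at 3.79 to 8.77 TPM, nsfb at 7.88 to 8.95 TPM and vamp3, a synaptobrevin used widely outside neurons, at 17.9 to 19.3 TPM. Of these, sv2ba and stx3a overlapped each other, as did CPLX3 and nsfb.

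The order of the members was not the same in each group. In the WT embryo at 24 hpf the highest member was cltca, a clathrin heavy chain, at 103, 104 and 102 TPM, followed by napab at 82.4, 82.1 and 86.8 TPM. These are housekeeping parts of membrane traffic, whereas snap25a, at 36.4 to 37.5 TPM, was the seventh. In the WT head at 5 dpf snap25b led at 439, 423 and 412 TPM, with snap25a below it at 380.4, 381 and 382 TPM. Heads and 2-month brains were counted apart from embryos, 3-month and 18-month brains, and levels are compared only within each of these sets. Whether the counting settings differed is not stated in the sources used here. The summed level of the 36 genes was 629 ± 5.80 TPM (SD, n = 3) in WT embryos and 9716 ± 131 TPM in WT brains at 3 months, a ratio of 15.4. In the other set it was 4072 ± 30.7 TPM in WT heads and 8786 ± 350 TPM in WT brains at 2 months, a ratio of 2.16.

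**Figure D1:**
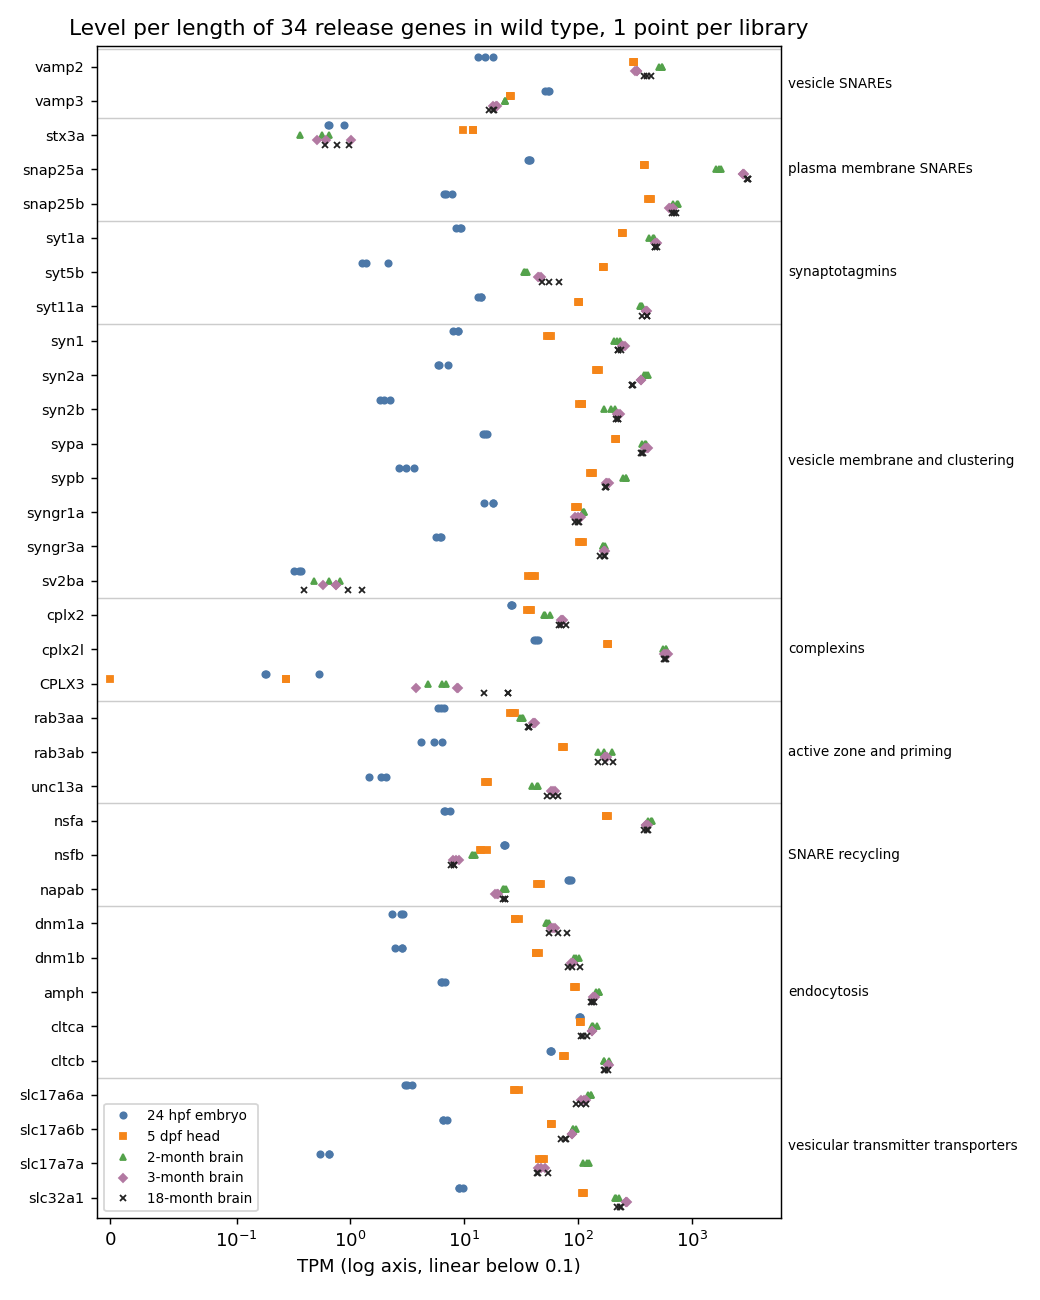
Level per length (TPM, log axis that is linear below 0.1) of 34 of the 36 genes in the WT groups, with 1 point per library and genes grouped by role. The 24 hpf, 3- and 18-month points were counted apart from the 5 dpf and 2-month points and are read within their own set: most genes lay lower at 24 hpf than at 3 months, with napab, nsfb and vamp3 the other way, and sv2ba, stx3a and syt5b lay higher in the head at 5 dpf than in the 2-month brain.

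The first stage comparison asked how these genes differ between the WT brain at 3 months and the WT embryo at 24 hpf, 2 groups counted in a single table. Of the 36 genes, 32 were higher in brain and 3 lower at an adjusted p below 0.05 in edgeR's quasi-likelihood test, against 45.0% of 21531 genes called higher and 90.8% called in either direction. The median log2 fold change of the 36 was 4.67 and that of all genes -0.02. The tissues differ as well as the ages, since the embryo is whole. In such bulk samples a change in the share of neurons and a change in the RNA each neuron holds cannot be told apart. The neuron markers were higher in brain for 13 of 14 genes, and the 10 muscle markers summed to 15741 to 17893 TPM in embryos and 33.3 to 95.6 TPM in brains.

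The 5 steepest differences were those of syn2b, snap25b, slc17a7a, snap25a and nsfa. The synapsin syn2b stood at 2.12, 1.97 and 2.42 CPM (the count as a rate over all counted reads of the library) in the embryos and 245, 231 and 239.6 CPM in the brains, a log2 fold change of 6.71 ± 0.07 (SE, adjusted p = 4.24e-18). For snap25b the values were 6.56, 5.77 and 5.68 CPM in embryos and 557, 528 and 517 CPM in brains, a log2 difference of 6.41 ± 0.06. The vesicular glutamate transporter slc17a7a (6.16 ± 0.12 on the log2 scale), snap25a (6.15 ± 0.04) and nsfa (5.75 ± 0.06) came next. All 8 vesicle membrane genes, all 5 endocytosis genes and all 4 transporters were called higher, with the clathrin chain cltca the shallowest of the called rises at 0.26 ± 0.03 (SE, adjusted p = 3.30e-06). The 3 genes that were lower were napab, vamp3 and nsfb, while vamp2 and nsfa, of the same families as the latter 2, were higher, vamp2 by 4.30 ± 0.07. The alpha-SNAP napab was at 60.1, 59.8 and 64.2 CPM in embryos and 14.2, 13.7 and 13.5 CPM in brains, a log2 fold change of -2.22 ± 0.06 (SE, adjusted p = 3.59e-14). For vamp3 the log2 fold change was -1.61 ± 0.05 (SE, adjusted p = 1.43e-13), and for nsfb -1.51 ± 0.06 (SE, adjusted p = 1.02e-11). The syntaxin stx3a did not pass the test, at -0.12 ± 0.32 (SE, adjusted p = 0.732), and its sign turned to 0.019 and 0.075 without embryo replicate 2 and without 3-month brain replicate 2, respectively. Of 85 other release genes tested, 63 were higher in brain and 19 lower, led by synprb, a synaptoporin, at 9.94 ± 0.20 (SE, adjusted p = 2.85e-15).

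Where both copies of a pair were measured, their shares differed between embryo and brain. Given as the share of the summed TPM of the pair in WT, nsfa made up 23.6 ± 1.31% (SD, n = 3) of nsfa and nsfb in embryos and 97.9 ± 0.148% in 3-month brains. NSF is the ATPase that recycles SNAREs. The share of snap25a was 83.8 ± 1.32% in embryos, 81.3 ± 0.506% at 3 months and 81.7 ± 0.643% at 18 months. Within the other set of counts, nsfa made up 92.4 ± 0.416% of its pair in heads and 97.3 ± 0.136% at 2 months, and snap25a 47.3 ± 0.864% in heads and 70.4 ± 0.475% at 2 months. For the small GTPase Rab3, which tethers vesicles at the active zone, rab3aa made up 54.3 ± 4.96% of the pair in embryos and 19.1 ± 0.707% at 3 months. The complexin cplx2 went from 38.0 ± 0.7% to 10.9 ± 0.232% of cplx2 and cplx2l, and the glutamate transporter slc17a6a from 32.5 ± 1.95% to 55.9 ± 1.20% of its pair. For the clathrin heavy chain, cltca was at 64.1 ± 0.157% in embryos and 42.0 ± 0.186% at 3 months. Among the other pairs the share of the a copy in embryos and 3-month brains was 83.1 ± 1.48% and 69.0 ± 0.696% for synaptophysin, 75.8 ± 3.54% and 61.1 ± 0.597% for synapsin 2, and 49.5 ± 4.47% and 40.3 ± 0.882% for dynamin 1. These shares are descriptions, and reads that fit both copies of a pair could have been assigned to either or dropped.

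The other stage comparison set the WT brain at 2 months against the WT head at 5 dpf, which were counted with the same settings. Here 27 of 36 genes were higher in brain and 7 lower, where 38.2% of 21579 genes were called higher and 79.4% called in all. The median log2 fold change was 0.69 for the 36 genes and -0.02 for all genes. The largest called differences in favour of brain, apart from CPLX3, were snap25a at 2.00 ± 0.05 (SE, adjusted p = 7.56e-12), slc17a6a at 1.98 ± 0.05 (SE, adjusted p = 1.95e-11), syn1, a synapsin, at 1.81 ± 0.05 (SE, adjusted p = 3.64e-11) and syt11a, a synaptotagmin that does not bind calcium in mammals, at 1.65 ± 0.04 (SE, adjusted p = 1.46e-11). The steepest differences in favour of heads were those of sv2ba, stx3a and syt5b. For sv2ba the heads were at 91.2, 85.3 and 80.0 CPM and the brains at 1.70, 1.34 and 0.983 CPM, a log2 fold change of -6.09 ± 0.12 (SE, adjusted p = 1.18e-12). The syntaxin stx3a was at 10.8, 10.5 and 8.71 CPM in heads and 0.485, 0.304 and 0.553 CPM in brains, a difference of -4.56 ± 0.21 (SE, adjusted p = 1.85e-09). The synaptotagmin syt5b followed, at -2.45 ± 0.05 (SE, adjusted p = 1.26e-12). Photoreceptor markers moved with these genes. All 13 were called lower in brain, and their summed level was 14198 to 15579 TPM in heads and 56.4 to 76.5 TPM in brains, with opn1mw1 at 0 in the latter. Head and brain are also different tissues. All 10 muscle markers were lower in brain, with sums of 13880.0 to 14452 TPM in heads and 59.3 to 197 TPM in brains, while 13 of 14 neuron markers were higher in brain and 1 lower, with sums of 1743 to 1787 and 6412 to 6682 TPM. The part of these cell types in the result was not tested. For napab the log2 fold change was -1.18 ± 0.07 (SE, adjusted p = 1.07e-08), and nsfb and vamp3, at -0.45 ± 0.07 and -0.32 ± 0.05, were lower too. Among other release genes, 61 of 85 were higher and 17 lower, and cplx4a, cplx4c and syt5a were among the 5 with the largest change, at -5.64 (adjusted p = 5.68e-13), -3.99 (adjusted p = 1.83e-10) and -3.94 (adjusted p = 9.29e-12). The first of these belong to the complexins of ribbon synapses in the mouse retina.

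**Figure D2:**
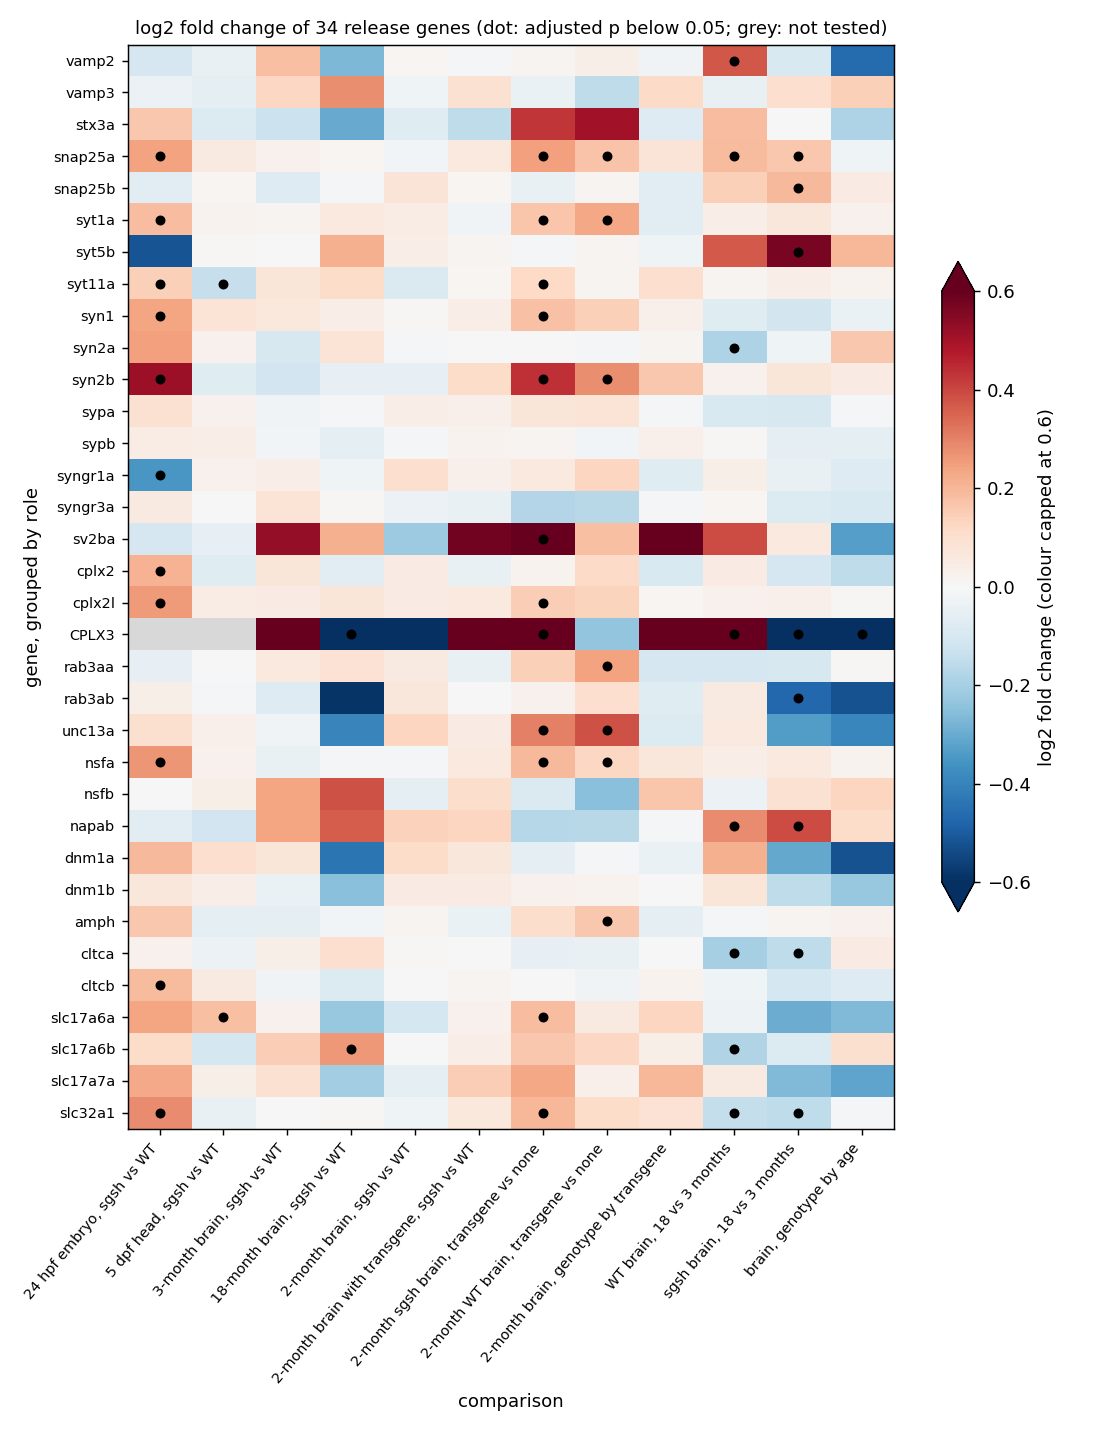
Log2 fold change of 34 of the 36 genes (rows, grouped by role) in the 12 comparisons of genotype, transgene and age (columns), with the colour capped at 0.6, a dot where the adjusted p was below 0.05 and grey where the gene was not tested. The 24 hpf and both transgene columns hold 11, 12 and 7 dots, and the genotype columns of the 2- and 3-month brains hold none.

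Several release genes were modestly higher in homozygous sgsh embryos at 24 hpf than in WT embryos. Of 35 genes tested, 11 rose and 1 fell, where 21.7% of 20175 genes were called and 10.8% called higher. The median log2 fold change was 0.11 for the 35 genes and 0.00 for all genes. The genes that rose came from most steps of the cycle. Among them were both tested complexins, the SNARE snap25a, the synaptotagmins syt1a and syt11a, the synapsins syn1 and syn2b, nsfa, the clathrin chain cltcb and slc32a1, the transporter that loads GABA and glycine.

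The complexin cplx2l was at 49.6, 50.7 and 48.5 CPM in the sgsh and 39.8, 43.0 and 41.9 CPM in the WT embryos, a log2 fold change of 0.26 ± 0.05 (SE, adjusted p = 0.000296). For cplx2 the values were 80.6, 75.8 and 82.7 against 68.2, 69.4 and 69.4 CPM, or 0.21 ± 0.04 (SE, adjusted p = 0.000512). All 3 mutant libraries lay above all 3 WT libraries for both, as they did for each of the 11 genes that rose. This order is no separate support, since the calls rest on the same libraries. By chance 3 against 3 libraries separate, in either direction, for 10% of genes that do not differ. The share of all genes that separated at this stage is not reported here. For snap25a the embryos were at 57.8, 52.4 and 58.0 CPM in sgsh and 46.4, 47.8 and 47.9 CPM in WT, a difference of 0.24 ± 0.05 (SE, adjusted p = 0.000387). The inhibitory transporter slc32a1 was at 19.0, 16.7 and 18.4 CPM in sgsh and 15.6, 14.2 and 14.7 CPM in WT, or 0.28 ± 0.07 (SE, adjusted p = 0.00343) on the log2 scale. Clathrin cltcb was at 222, 216 and 219.8 CPM in sgsh and 193, 193 and 191 CPM in WT, a difference of 0.19 ± 0.03 (SE, adjusted p = 0.000189). The rise of syn1 was 0.23 ± 0.06 (SE, adjusted p = 0.0048). The largest fold was that of a scarce transcript. For syn2b the values were 2.79, 3.24 and 3.25 CPM in sgsh and 2.12, 1.97 and 2.42 CPM in WT, a log2 fold change of 0.51 ± 0.15 (SE, adjusted p = 0.0202). Other rises were 0.26 ± 0.08 (SE, adjusted p = 0.0203) for nsfa, 0.18 ± 0.06 (SE, adjusted p = 0.0321) for syt1a and 0.15 ± 0.05 (SE, adjusted p = 0.0399) for syt11a. These 4 calls were lost under DESeq2, where the adjusted p was 0.0935 for syn2b, 0.0824 for nsfa, 0.113 for syt1a and 0.157 for syt11a, and each was also lost without at least 3 of the 6 libraries in turn. Synaptogyrin syngr1a, a 4-pass protein of the vesicle membrane, fell, from 11.2, 11.2 and 9.45 CPM in WT to 7.67, 8.26 and 8.97 CPM in sgsh, a log2 fold change of -0.35 ± 0.09 (SE, adjusted p = 0.00615).

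**Figure D3:**
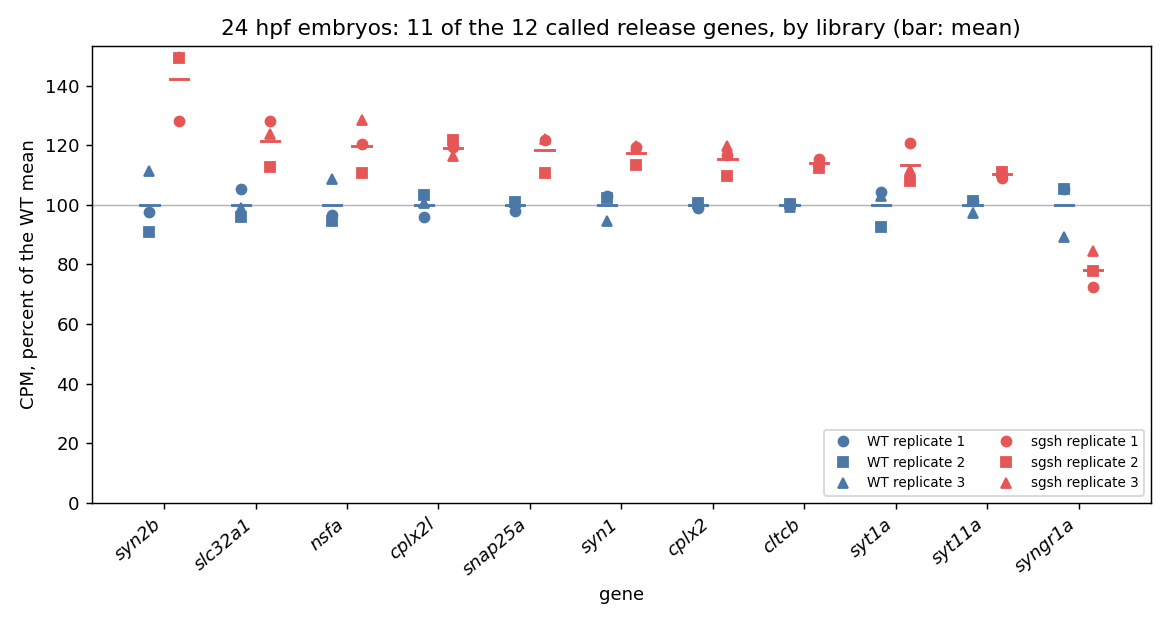
Level of 11 of the 12 called genes in the 6 libraries at 24 hpf, as CPM in percent of the WT mean (axis from 0), with a bar at each mean. The red sgsh points lie above all WT points for 10 genes, at up to 149.5% for syn2b, and below them for syngr1a, at 72.3 to 84.6%.

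Markers of other cells moved too at this stage. All 10 muscle markers rose, and their summed level was 20637 to 22061 TPM in sgsh and 15741 to 17893 TPM in WT embryos. Of the 14 neuron markers measured, 6 rose and 1 fell, with summed levels of 864 to 884 TPM and 852 to 871 TPM that overlapped; none of the 14 was at 0. Their part in the differences of the release genes was not tested. Among 79 other release genes, 14 rose and 3 fell. The largest were cplx4c at 0.81 ± 0.10 (SE, adjusted p = 4.61e-06), the gamma-synuclein sncga at 0.61 ± 0.05 (SE, adjusted p = 5.86e-09) and snap29, a SNAP25 relative of general membrane fusion, at 0.60 ± 0.05 (SE, adjusted p = 1.73e-08), and the endophilin sh3gl1a fell by 0.53 on the log2 scale.

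In heads at 5 dpf 2 of 35 genes were called, 1 in each direction, where 14.4% of 21627 genes were called. The glutamate transporter slc17a6a was at 36.2, 39.5 and 39.4 CPM in sgsh and 33.0, 36.4 and 33.4 CPM in WT heads, with 1 WT library within the sgsh range, a log2 fold change of 0.18 ± 0.06 (SE, adjusted p = 0.0429). The synaptotagmin syt11a, on chromosome 19, from 23982466 to 24034710, was at 185, 180.1 and 192 CPM in sgsh and 209, 208 and 205 CPM in WT, or -0.14 ± 0.04 (SE, adjusted p = 0.0206), and its groups did not overlap. Under DESeq2 neither was called, with adjusted p of 0.186 and 0.0841, and the count of calls was 0 or 1 without any single library. The second slc17a6 copy, slc17a6b, was at 138, 142 and 139.6 CPM in sgsh and 156, 151 and 151 CPM in WT and did not pass, at -0.11 ± 0.04 (SE, adjusted p = 0.0678). Of 85 other release genes, 2 rose and 6 fell, among them stxbp6 at -0.40 ± 0.08 (SE, adjusted p = 0.00541) and the endophilin sh3gl3a at -0.37 ± 0.06 (SE, adjusted p = 0.00159).

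The same synaptotagmin, syt11a, was the single member called at more than 1 stage between the genotypes, higher at 24 hpf and lower at 5 dpf. It was at 30.6, 31.2 and 31.2 CPM in sgsh and 28.4, 28.4 and 27.3 CPM in WT embryos. In the brain its log2 fold change was -0.088 ± 0.04 (SE, adjusted p = 0.387) at 2 months, 0.073 ± 0.04 (SE, adjusted p = 0.436) at 3 months and 0.11 ± 0.05 (SE, adjusted p = 0.197) at 18 months, and 0.013 ± 0.04 (SE, adjusted p = 0.984) at 2 months with the transgene. None of these passed the threshold. With age its log2 difference was 0.018 ± 0.05 (SE, adjusted p = 0.829) in WT and 0.040 ± 0.05 (SE, adjusted p = 0.59) in sgsh, neither called. The difference between the stages was not tested.

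In the brain at 3 months no release gene was called by edgeR, where 2.89% of 19922 genes were called. DESeq2 called 1 of the 36, where it called 734 of 18377 genes. In edgeR 8 of the 36 had an unadjusted p below 0.05. The share of all genes at that unadjusted level is not reported here, so this count is not read as an excess. The 3 with the smallest p were the synaptobrevin vamp2, slc17a6b and CPLX3. The main vesicle SNARE, vamp2, was at 142, 151 and 146 CPM in sgsh and 133, 132 and 127 CPM in WT, without overlap, and its log2 difference was 0.18 ± 0.04 (SE, adjusted p = 0.0581); DESeq2 called it, with an adjusted p of 0.0396. For slc17a6b the values were 246, 246 and 248 CPM in sgsh and 228, 224 and 227 CPM in WT, also apart, with 0.15 ± 0.04 (SE, adjusted p = 0.0654). Among 84 other release genes, vamp8, a synaptobrevin of late endosomes, rose by 0.45 ± 0.07 (SE, adjusted p = 0.00761) and sypl2a, a synaptophysin-like gene, by 0.32 ± 0.07 (SE, adjusted p = 0.0473). Myelin and blood genes differed between these brains, with 3 of 8 oligodendrocyte and 3 of 5 red blood cell markers called lower in sgsh, and their part was not tested.

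In the brain at 2 months, again, none of the 36 passed in edgeR, where 0.841% of 19749 genes were called. DESeq2 called 1 of the 36, where it called 281 of 19741 genes. In edgeR 3 of the 36 had an unadjusted p below 0.05, and the share of all genes at that unadjusted level is not reported here. Apart from CPLX3 the smallest p belonged to unc13a, the Munc13 that primes vesicles, at 109, 114 and 118 CPM in sgsh and 98.0, 107 and 106 CPM in WT and a log2 difference of 0.13 ± 0.05 (SE, adjusted p = 0.328). For snap25a the difference was -0.015 ± 0.05, and its values of 2009, 2049.6 and 2170.3 CPM in sgsh and 2028, 2157 and 2096 CPM in WT overlapped. In the fish that carried the transgene no gene of the 36 was called or had an unadjusted p below 0.05, DESeq2 called none, and 0.0304% of 19749 genes were called. The 3 with the smallest p were CPLX3, sv2ba at 0.58 ± 0.30 (SE, adjusted p = 0.82) and slc17a7a at 0.15 ± 0.08 (SE, adjusted p = 0.847). Whether the genotype difference depends on the transgene was tested as an interaction. In edgeR it called none of the 36, where 0.127% of genes were called. DESeq2 called 1, CPLX3, where it called 112 of 19741 genes. In edgeR 1 of the 36 had an unadjusted p below 0.05 (share of all genes not reported here). The 3 smallest p of the edgeR interaction belonged to CPLX3 (adjusted p = 0.0869), syt11a at 0.10 ± 0.05 (SE, adjusted p = 0.578) and sv2ba at 0.79 ± 0.44 (SE, adjusted p = 0.602). No other release gene of 83 was called in any of these 3 comparisons.

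At 18 months the count of called release genes depended on 1 library and on the fit. In the fit of all 6 libraries 2 of 36 genes were called, slc17a6b higher and CPLX3 lower, where 6.72% of 20116 genes were called. The glutamate transporter slc17a6b was at 229.9, 234 and 229 CPM in sgsh and 192, 203 and 200.4 CPM in WT, without overlap, with a log2 fold change of 0.26 ± 0.05 (SE, adjusted p = 0.0258). Its call was lost without each of the other 5 libraries in turn, and in a fit blocked on replicate numbers (adjusted p = 0.0942). Without sgsh replicate 1 the count of calls was 11, where 3453 of 20447 genes were called. Without any other single library the count was 1, where 189 to 698 genes were called. A joint fit with the 3-month libraries called 7, where 3711 of 20608 genes were called. DESeq2 called 6, where 2115 of 18944 genes were called.

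Without sgsh replicate 1 genes were called in both directions. With every library kept, DESeq2 called 3 higher and 3 lower, and the joint fit 4 higher and 3 lower. The 10 genes besides CPLX3 that were called without sgsh replicate 1 were 6 lower and 4 higher. For rab3ab the sgsh brains were at 53.5, 41.8 and 32.8 CPM and the WT brains at 58.1, 75.2 and 64.2 CPM, and the log2 difference moved from -0.59 ± 0.16 (SE, adjusted p = 0.0642) to -0.76 ± 0.13 (SE, adjusted p = 0.0155). In unc13a the values were 150.4, 108 and 85.6 CPM in sgsh and 140.3, 169.8 and 155 CPM in WT, with -0.40 ± 0.17 (SE, adjusted p = 0.17) in the full fit and -0.62 ± 0.11 (SE, adjusted p = 0.0173) without the library. Dynamin dnm1a, the GTPase that pinches off vesicles, was at 157, 117 and 87.6 CPM in sgsh and 142, 195 and 166 CPM in WT, and slc17a6a at 150.2, 91.9 and 78.8 CPM in sgsh and 118, 140.5 and 126 CPM in WT. In each of these genes, and in dnm1b and vamp2, sgsh replicate 1 was the highest mutant library and replicate 3 the lowest. The genes were picked by the fit without replicate 1, which favours genes in which that library lay nearer to WT. Its place among them is therefore no separate result. Without replicate 1 the differences were -0.66 ± 0.15 (SE, adjusted p = 0.0303) for dnm1a, -0.53 ± 0.09 (SE, adjusted p = 0.0155) for slc17a6a, -0.40 ± 0.09 (SE, adjusted p = 0.0257) for dnm1b and -0.34 ± 0.07 (SE, adjusted p = 0.0221) for vamp2.

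The 4 that were higher were slc17a6b, napab, nsfb and vamp3. For napab the sgsh brains were at 18.8, 22.0 and 21.6 CPM and the WT brains at 16.5, 16.7 and 16.7 CPM, without overlap, and the log2 difference was 0.36 ± 0.09 (SE, adjusted p = 0.0561) with all libraries. The values of nsfb were 15.6, 18.1 and 16.8 CPM in sgsh and 13.9, 13.2 and 12.6 CPM in WT, also apart, with 0.38 ± 0.10 (SE, adjusted p = 0.0575). Those of vamp3 were 33.7, 37.5 and 37.8 CPM in sgsh and 32.5, 30.9 and 28.9 CPM in WT, with 0.28 ± 0.08 (SE, adjusted p = 0.0779). None of the 3 was called with all 6 libraries by edgeR. Called in none of these fits were, among others, snap25a at 0.013 ± 0.05 and syt1a at 0.061 ± 0.06. Of 84 other release genes, 7 rose and 1 fell, with sypl2b at 1.30 ± 0.17 (SE, adjusted p = 0.0081), slc18b1, a vesicular polyamine transporter, at -1.18 ± 0.26 (SE, adjusted p = 0.038) and snap29 at 0.45 ± 0.09 (SE, adjusted p = 0.0303). Microglia markers summed to 352 to 415 TPM in sgsh and 233 to 271 TPM in WT brains and neuron markers to 4095 to 4382 and 4305 to 4423 TPM, and their part was not tested. Photoreceptor markers summed to 33.2 to 61.4 TPM in sgsh and 6.24 to 138 TPM in WT.

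**Figure D4:**
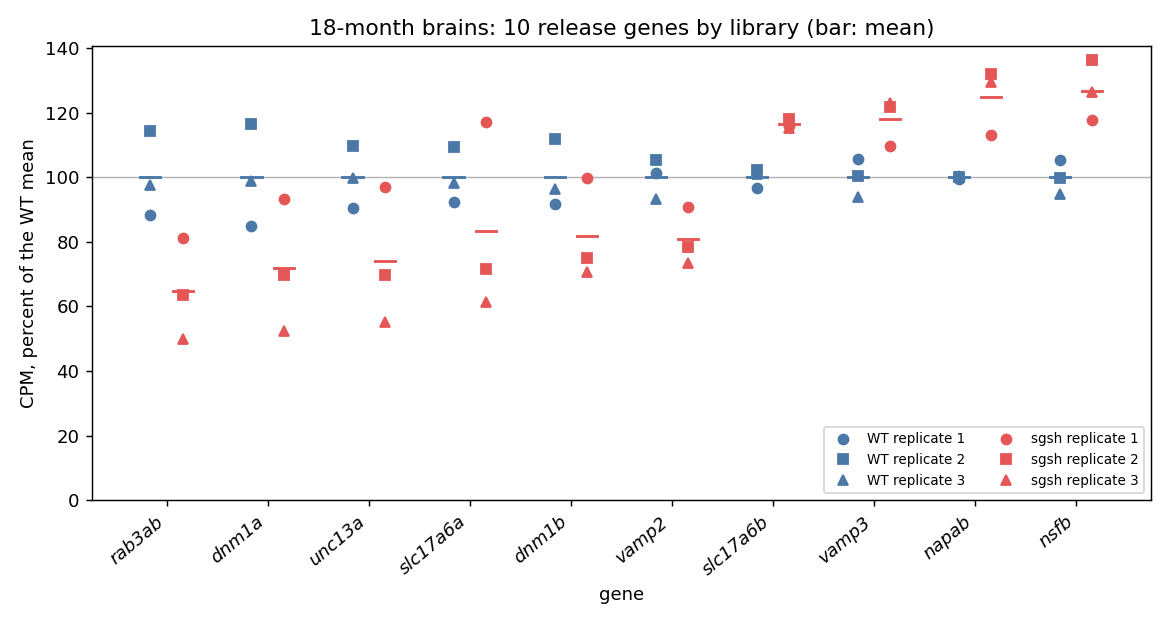
Each 18-month brain library's level of 10 release genes, as CPM in percent of the WT mean (axis from 0), with a bar at each mean. These are the genes besides CPLX3 called without sgsh replicate 1 (red circle), which lay at 97.1% for unc13a and 117% for slc17a6a while replicate 3 (red triangle) lay at 55.3% and 61.4%. The place of replicate 1 is partly set by this choice of genes.

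CPLX3 had the largest fitted genotype difference of the 36 at 2, 3 and 18 months, on small counts. The gene, ENSDARG00000099196, is on the unplaced scaffold KN149995.1, from 4573 to 7426, and is the single gene the annotation lists there. Complexin 3 binds assembled SNARE complexes, and in mice it serves ribbon synapses of the retina. At 18 months the WT brains had 74, 114 and 118 reads and the sgsh brains 1, 0 and 0. At 2 months without the transgene the WT brains had 22, 16 and 23 reads and the sgsh brains 1, 1 and 0. So the mutant brains were at or near 0 at both ages. At 3 months, in between, the order was the other way, with 83, 80 and 39 reads in sgsh and 41, 18 and 42 in WT, where sgsh replicate 3, at 1.83 CPM, lay within the WT range. In 2-month brains with the transgene the counts were 73, 36 and 8 in sgsh and 12, 13 and 26 in WT, which overlapped. Embryos and heads had between 0 and 5 reads per library.

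The edgeR test called CPLX3 at 18 months, with an adjusted p of 0.0011, and did not call it at 2 months (0.058), at 3 months (0.137) or at 2 months with the transgene (0.789). At 2 months it was called by DESeq2 (adjusted p = 0.00429), without the filter on low counts (0.0262) and in the 6 libraries alone (0.0106). The genotype difference itself differed between 3 and 18 months, with an adjusted p of 0.00113 for the interaction, for which 0.126% of 20608 genes were called. With so few mutant reads the fitted folds depend on the prior count. The ratio of summed counting rates, WT to sgsh, was 305 at 18 months (306 and 1 reads, 95% exact binomial interval of 54.4 to 12097) and 30.6 at 2 months (61 and 2 reads, 8.11 to 258), and these intervals cover counting error only. Reads of a near copy of the gene elsewhere in the genome could have been counted or dropped. A difference in expression and a difference in the alleles or copies of this gene among the fish pooled cannot be told apart in these counts. The annotation also lists the separate genes cplx3a and cplx3b.

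**Figure D5:**
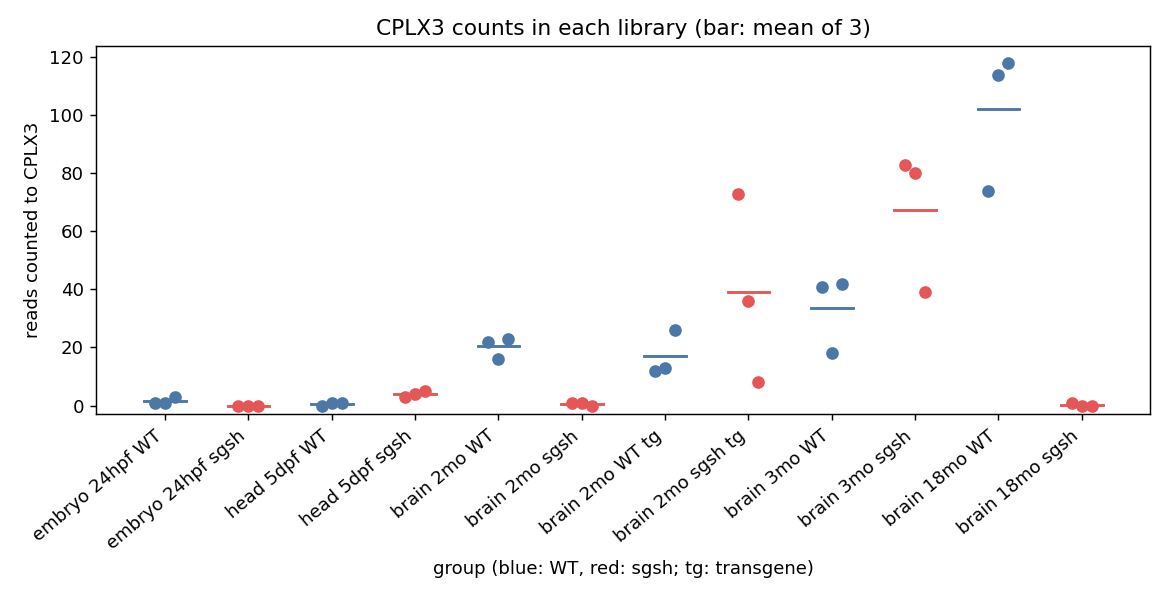
Reads counted to CPLX3 (linear axis) in each of the 36 libraries by group, blue for WT and red for sgsh, with a bar at the mean of 3. Without the transgene, mutant brains at 2 and 18 months lay at 0 or 1 read and WT brains of these ages at 16 to 118. At 3 months the mutant brains had 39 to 83 reads, and with the transgene the 2-month genotypes overlapped.

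At 2 months a set of release genes was higher in the brains of transgenic fish, in both genotypes. In sgsh brains 13 of 36 genes rose and none fell, with DESeq2 calling 12 higher and syngr3a lower, where 18.4% of 19749 genes were called and 8.85% called higher. In WT brains 7 rose and none fell, with DESeq2 calling 8 higher, where 15.2% were called and 6.79% called higher. The median log2 fold change was 0.09 in sgsh and 0.07 in WT for the 36 genes, and 0.00 for all genes in both. These comparisons share no library, but come from a single fit of 12 libraries with a shared estimate of the spread. The genes called in both were syt1a, nsfa, snap25a, syn2b and unc13a, which are 38.5% of the 13 and 71.4% of the 7. The overlap among all called genes was not computed.

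The vesicle-priming gene unc13a was at 134, 144 and 139 CPM in sgsh brains with the transgene and 109, 114 and 118 CPM without it, a log2 fold change of 0.30 ± 0.05 (SE, adjusted p = 0.00132). In WT brains it was at 133, 135 and 136 CPM with and 98.0, 107 and 106 CPM without it, or 0.38 ± 0.05 (SE, adjusted p = 0.000361). All transgenic libraries lay above all others in both. For snap25a the sgsh brains went from 2009, 2049.6 and 2170.3 to 2346, 2553 and 2429.5 CPM, 0.25 ± 0.05 (SE, adjusted p = 0.00259), and the WT brains from 2028, 2157 and 2096 to 2379, 2366 and 2299.5 CPM, 0.17 ± 0.05 (SE, adjusted p = 0.0248). Synapsin syn2b rose by 0.44 ± 0.08 (SE, adjusted p = 0.00149) in sgsh and 0.28 ± 0.08 (SE, adjusted p = 0.0255) in WT. The calcium sensor syt1a rose by 0.17 ± 0.04 (SE, adjusted p = 0.0152) and 0.23 ± 0.04 (SE, adjusted p = 0.00296), and nsfa by 0.19 ± 0.04 (SE, adjusted p = 0.00471) and 0.13 ± 0.04 (SE, adjusted p = 0.0499).

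Among the genes called in sgsh alone, though without a test of the difference that passed, were the transporters slc32a1 (0.20 ± 0.06, adjusted p = 0.0342) and slc17a6a (0.18 ± 0.05, adjusted p = 0.0301), syn1 (0.17 ± 0.05, adjusted p = 0.0347), cplx2l (0.15 ± 0.05, adjusted p = 0.042), syt11a (0.12 ± 0.04, adjusted p = 0.0446), sv2ba (0.98 ± 0.31, adjusted p = 0.042) and CPLX3 (adjusted p = 0.00132). The scarce sv2ba was at 2.81, 1.95 and 2.03 CPM with and 1.57, 1.29 and 0.609 CPM without the transgene. For CPLX3 the 3 transgenic sgsh libraries held 117 reads in all and the others 2, a ratio of rates of 58.8 (95% exact binomial interval of 15.9 to 491). Called in WT alone were rab3aa (0.24 ± 0.06, adjusted p = 0.014) and the endocytosis adaptor amph (0.16 ± 0.05, adjusted p = 0.0389). None of the 3 endocytosis genes dnm1a, dnm1b and cltcb passed in either genotype, and their log2 differences were -0.053 ± 0.07, 0.025 ± 0.08 and -0.0014 ± 0.04 in sgsh.

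How many genes were called depended on the libraries and on the fit. In sgsh the count was 8, 8 and 10 without sgsh replicates 1, 2 and 3 (2788, 3021 and 3619 over all genes). It was 12, 5 and 6 without transgenic replicates 1, 2 and 3 (3127, 2676 and 2548 over all genes). In the 6 libraries alone it was 4 (2442 over all genes). Of these calls, 1 was lower without sgsh replicate 2 and 1 without transgenic replicate 1. In WT the count was 3, 7 and 2 without WT replicates 1, 2 and 3 (1795, 2334 and 2176 over all genes). It was 4, 3 and 3 without transgenic replicates 1, 2 and 3 (1989, 1889 and 2058 over all genes). In the 6 libraries alone it was 9 (3658 over all genes). Of these WT calls, 1 was lower without transgenic replicate 1 and 1 in the 6 libraries alone. The calls of unc13a in both genotypes, of snap25a, syn2b and nsfa in sgsh and of syt1a in WT held in every one of these fits. Other calls were lost in most of the 11 alternative fits. Those of sv2ba and cplx2l in sgsh and of nsfa in WT held in 4, and that of amph in WT in 5. Other cell types' genes also moved with the transgene. In sgsh, 4 of 14 neuron markers fell and 2 rose, and their sum was 5472 to 5682 TPM with and 6466 to 6595 TPM without the transgene. Of 8 oligodendrocyte markers 5 rose, with sums of 5018 to 5611 and 3612 to 4382 TPM. Red blood cell markers, of which hbae1.1 was at 0, summed to 1586 to 1792 and 2981 to 3534 TPM, and muscle markers to 65.5 to 1974 and 55.0 to 127 TPM. In WT the neuron sums were 5589 to 5859 TPM with and 6412 to 6682 TPM without the transgene, and 5 of the 14 markers fell and 1 rose. In WT, 3 of 6 red blood cell markers also fell, with sums of 1455 to 2264 TPM with and 2828 to 5001 TPM without the transgene. Of 8 radial glia markers, 3 fell and 1 rose in WT, with sums of 5921 to 6273 and 7710.2 to 8098 TPM, and 2 fell in sgsh, with 6083 to 6369.6 and 6429.8 to 7516 TPM. None of 8 oligodendrocyte markers was called in WT. Photoreceptor markers rose for 3 of 9 tested genes in sgsh, with sums of 70.3 to 104 TPM with and 49.8 to 77.0 TPM without the transgene. The part of these cell types in the result was not tested. Of 83 other release genes, 9 rose and 2 fell in sgsh and 4 rose and 5 fell in WT. The synaptotagmin syt10 fell in both, by 0.30 ± 0.06 (SE, adjusted p = 0.0046) in sgsh and 0.26 ± 0.06 (SE, adjusted p = 0.012) in WT.

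Between 3 and 18 months, 8 of 36 genes were called in WT brains, 4 higher and 4 lower, where 20.8% of 20608 genes were called. In sgsh brains 8 were called as well, 4 in each direction, where 19.5% were called. The calls that both share in direction were snap25a, napab, slc32a1 and cltca, which are 50.0% of each list. These comparisons share no library, but come from a single fit of all libraries of both ages with a shared estimate of the spread. The overlap among all genes called with age was not computed, so the shared calls are not read as an excess. The WT calls of napab and slc32a1 were each lost without any 1 of the 6 WT libraries, with adjusted p of up to 0.0883 and 0.0952. The sgsh call of napab held in all 11 alternative fits, those of cltca and slc32a1 in 8 and that of snap25a in 7.

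The membrane SNARE snap25a was higher at 18 months, at 4125, 3836 and 3986 CPM against 3549, 3526 and 3509 CPM in WT (0.19 ± 0.04, adjusted p = 0.00812) and 3951, 3811 and 3967 CPM against 3464, 3459 and 3662 CPM in sgsh (0.16 ± 0.04, adjusted p = 0.0196). Clathrin cltca was lower, by 0.20 ± 0.04 (SE, adjusted p = 0.00367) on the log2 scale in WT and 0.15 ± 0.04 (SE, adjusted p = 0.0184) in sgsh. The inhibitory transporter slc32a1 was lower by 0.14 ± 0.04 (SE, adjusted p = 0.0271) and 0.15 ± 0.04 (SE, adjusted p = 0.0223), and napab was higher by 0.28 ± 0.08 (SE, adjusted p = 0.0316) and 0.39 ± 0.08 (SE, adjusted p = 0.00647). In WT the list also held vamp2, at 171, 177 and 157 CPM at 18 months and 133, 132 and 127 CPM at 3 months (0.37 ± 0.07, adjusted p = 0.00225), slc17a6b (-0.18 ± 0.04, adjusted p = 0.00632), syn2a (-0.19 ± 0.05, adjusted p = 0.0115) and CPLX3, with 306 reads at 18 months and 101 at 3 months, a ratio of rates of 3.05 (95% exact binomial interval of 2.43 to 3.86; edgeR's adjusted p = 0.00442). In sgsh it held snap25b (0.19 ± 0.05, adjusted p = 0.0248), syt5b (0.57 ± 0.16, adjusted p = 0.0257), rab3ab (-0.47 ± 0.14, adjusted p = 0.0351) and CPLX3, with 1 read at 18 months and 202 at 3 months (adjusted p = 6.78e-05).

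The interaction of genotype and age called CPLX3 alone among the 36. Next by p was vamp2, fitted higher in sgsh than WT at 3 months and lower at 18 months. It was called at neither age in the edgeR fits of 6 libraries. Its interaction of -0.46 ± 0.10 (SE, adjusted p = 0.104) did not pass, and was called in 2 of 16 alternative fits. For rab3ab, the gene after it, the interaction was -0.52 ± 0.20 (SE, adjusted p = 0.269). Without 18-month sgsh replicate 1 the interaction called 4 of these genes, CPLX3, vamp2, rab3ab and unc13a, where 463 of 20896 genes were called. The age comparison in sgsh then called 14, where 5019 of 20896 were called. Its count was 2, 4 and 3 without 3-month sgsh replicates 1 and 2 and 18-month sgsh replicate 3, in turn. Over all genes 2318, 2387 and 2917 were called in these fits. In the 6 libraries alone the count was 4 (2273 over all genes). In WT it was 5 without 18-month replicate 2 (2956 over all genes). Oligodendrocyte markers were lower with age for 5 of 8 genes in each genotype, and microglia markers were higher for 7 of 8 in sgsh. In WT the microglia markers summed to 269 to 317 TPM at 3 months and 233 to 271 TPM at 18 months. Radial glia markers summed to 6791 to 7044 TPM at 3 months and 5174 to 5373 TPM at 18 months in WT. In sgsh the radial glia sums were 6543 to 6699 and 5439 to 5745 TPM. Neuron markers were lower for 8 of 14 genes in sgsh, with sums of 5028 to 5267 TPM at 3 months and 4095 to 4382 TPM at 18 months, and for 3 of 14 in WT, with 5054 to 5369.9 and 4305 to 4423 TPM. The part of these cell types was not tested. Of 85 other release genes, 7 rose and 13 fell in WT and 7 rose and 7 fell in sgsh, led in WT by synprb at -1.38 ± 0.27 (SE, adjusted p = 0.00327) and in sgsh by cplx3a at 0.93 ± 0.29 (SE, adjusted p = 0.041).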

How the data were processed

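RNA was extracted from pools of whole zebrafish embryos, heads and brains and sequenced as 150 bp paired-end reads on a DNBSEQ platform by BGI. The authors deposited raw counts of reads per gene, without normalization. The submitters' processing notes name the build GRCz11 and the tools HISAT2, Bowtie2 and RSEM. The study's methods name HISAT2, Bowtie2 and Salmon, and the name given to the embryo, 3-month and 18-month counts holds STAR and featureCounts. Which aligner lies behind the counts is therefore not settled. Per the file headers, the 5 dpf and 2-month counts were made with featureCounts 2.0.1 from read pairs on the reverse strand, mapped with a quality of 10 or more. Embryo, 3-month and 18-month counts came as a single table, whose settings for strand and filtering are not given in the sources used here. Values were therefore compared within a table, and the 2-month brains only with the 5 dpf heads.

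Groups came from the labels. Each comparison was fitted on all genes that passed filterByExpr (minimum count 10, minimum total 15) with TMM factors and the quasi-likelihood test of edgeR 4.0.16 in R 4.3.3, and p-values were adjusted over all genes tested (Benjamini-Hochberg, threshold 0.05). Genotype at 24 hpf, 5 dpf, 3 and 18 months and both stage comparisons used 6 libraries each, and the 2-month and age comparisons 12. CPM were computed from the total counts and TPM from the exon lengths in the count files. Each SE was computed from the edgeR test, as the absolute log2 fold change divided by the square root of the F statistic. With 3 libraries a group, an exact permutation test cannot go below 0.1, so none was used. Intervals on ratios of counts are exact binomial and cover counting error only.

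The genes, the other release genes (86 of 143 symbols found) and the marker lists were chosen with earlier results of these data known. Named were the called genes, up to 12 per comparison by the size of the change, the 3 with the smallest p where fewer than 3 were called, and the 5 steepest in each direction between stages. Alternatives were DESeq2 1.42.0, RLE factors, no filter on low counts, a replicate block, leaving out each library, other sets of libraries in the fit, and RPKM in place of TPM. The edgeR fit was tested on simulated counts. Counts of calls cover all 36 genes, of which some are not reported here by name. No library duplicated another within its group.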

Additional observations from a re-analysis of the deposited data

Results flagged for a closer look

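The genotype difference of CPLX3 itself differed between 3 and 18 months. The interaction was -8.79 on the log2 scale (edgeR's quasi-likelihood test, adjusted p = 0.00113), with 202 reads in the 3 sgsh and 101 in the 3 WT libraries at 3 months against 1 and 306 at 18 months. The fitted size depends on the prior count, so no SE is given for it. At 2 months without the transgene every sgsh library lay below every WT library (fitted difference -4.70). At 3 months every sgsh library lay above every WT library once scaled by TMM factors (1.01). In unscaled CPM, sgsh replicate 3 lay within the WT range at 3 months. The edgeR test called CPLX3 at neither age (adjusted p = 0.058 at 2 months and 0.137 at 3 months). The difference between these ages was not tested.

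Other genes had genotype differences of opposite direction at different stages, with non-overlapping groups in each, and these contrasts between stages were not tested either. In a single comparison 3 against 3 libraries separate by chance for 10% of genes that do not differ. The shares of all genes that separated are not reported here. For syt11a the log2 difference was 0.15 at 24 hpf, -0.14 at 5 dpf and -0.088 in the 2-month brain. The last was not called, and the calls at 24 hpf and 5 dpf held in 2 and 5 of 10 alternative fits. For slc17a6b the difference was -0.11 at 5 dpf, 0.15 in the 3-month brain and 0.26 in the 18-month brain. Only the 18-month value was called, and that call held in 5 of 11 alternative fits. The 24 hpf, 3-month and 18-month values come from another count table than the 5 dpf and 2-month values.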

How the results depend on the processing

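DESeq2 called 8 release genes at 24 hpf (12 by edgeR), 0 at 5 dpf (2), 1 at 3 months (0), 1 at 2 months (0) and 6 at 18 months (2). It called 1 for genotype by transgene (0) and 2 for genotype by age (1). Over all genes DESeq2 called 2749 at 24 hpf (4369 by edgeR), 1904 at 5 dpf (3110), 734 at 3 months (576) and 281 at 2 months (166). At 18 months it called 2115 (1352), for genotype by transgene 112 (25) and for genotype by age 224 (26). Without the filter on low counts 1 release gene was called at 2 months (213 over all genes) and 1 for genotype by transgene (51). With the 6 libraries of the 2 groups alone 1 was called at 2 months (94 over all genes). In such fits 4 were called for the transgene in sgsh (2442), 9 for the transgene in WT (3658) and 4 for age in sgsh (2273). The joint fit with the 3-month brains called 7 at 18 months (3711 over all genes). Leaving out 1 library at a time gave 8 to 13 calls at 24 hpf, 0 to 1 at 5 dpf, 1 to 11 at 18 months, 5 to 12 for the transgene in sgsh, 2 to 7 for the transgene in WT, 0 to 1 for genotype by transgene, 5 to 6 for age in WT, 2 to 14 for age in sgsh and 1 to 4 for genotype by age. It gave 0 at 3 months and in both genotype comparisons at 2 months, 35 between embryo and 3-month brain and 34 between head and 2-month brain. Calls over all genes moved in the same fits, from 3115 to 3864 at 24 hpf, 2001 to 3038 at 5 dpf and 189 to 3453 at 18 months. They ran from 2318 to 5019 for age in sgsh, 2655 to 3361 for age in WT and 3 to 31 for genotype by transgene. For genotype by age they ran from 8 to 463, and for the transgene from 2548 to 3619 in sgsh and 1795 to 2334 in WT. Across the genes named, leaving out 1 library kept direction and call in 449 of the values recomputed, lost the call in 109, gained it in 4 and turned the sign in 2. Both of the latter were stx3a between embryo and 3-month brain, which was not called: 0.019 without embryo replicate 2 and 0.075 without 3-month brain replicate 2, over a range from -0.46 to 0.075. RLE factors changed no call of a named gene. With RPKM in place of TPM the ratios of the summed levels were 14.4 and 2.03. The causes of these changes were not tested.

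In no comparison did all 3 same-numbered pairs correlate above 0.1 (lowest -0.32, highest 0.16), and their libraries share only a number. With the replicate number as a block, 1 gene was called at 18 months, since slc17a6b no longer passed (0.26, adjusted p = 0.0942), and the call was also lost for syt11a at 24 hpf and cplx2l for the transgene in sgsh. Fewer than 30 reads lie behind CPLX3 in most 2-month libraries, which limits what can be called there.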
